A study of Mus musculus with 3 samples.

Results

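The small leucine-rich proteoglycans described here are Dcn, Bgn, Lum, Fmod, Ogn, Aspn, Prelp, Omd and Podn, taken by name from the deposited count table of an in vitro Leydig cell differentiation. All 9 genes were found among the 24698 genes of the table, of which 23473 had a count on days 4, 7 or 14 of culture. Cells came from testes of C57BL/6 male mice aged 8 to 12 weeks, were sorted as Sca1+/cKit- and were plated on Matrigel at 100000 cells per well. All 3 libraries share the first steps: 18 h of recovery in 10% FBS, then 3 days of expansion with PdgfAA and PdgfBB (10 ng/ml each), 10 ng/ml Fgf2 and SAG at 0.5 uM. The differentiation medium that followed kept these factors and added 5 mM LiCl2 and 10 uM DAPT. By the study's methods the day 4 cells came from the end of expansion and the later cells from the differentiation medium. A difference between day 4 and a later day therefore cannot be told apart from the change of medium. Drop-seq, in which a bead captures the RNA of a cell in a droplet and marks each captured molecule with a unique molecular identifier (UMI), was made from 1 sample on day 4, 1 on day 7 and 1 on day 14. With 1 library per day no test, p-value or standard error can be given, and a difference between days cannot be told apart from a difference between libraries. Every sorted cell type that survived plating could enter the libraries, and how many animals each held is not given in the sources used here.

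Small leucine-rich proteoglycans are secreted proteins of the extracellular matrix whose leucine-rich repeats bind collagen fibrils and set their diameter and spacing. Several carry chondroitin, dermatan or keratan sulphate chains, and several bind TGF-beta or BMP ligands and so limit or store growth factor at the cell surface. Fibroblasts and other mesenchymal cells are their usual source, and decorin is a common marker of stromal fibroblasts.

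The 3 libraries held 2980, 2171 and 973 cell barcodes on days 4, 7 and 14, with 12677110, 11627440 and 5324400 UMIs and a median of 2886.5, 3285 and 3272 UMIs per barcode. No barcode was shared between libraries. Within a library, 44.6% of the barcodes on day 4, 47.6% on day 7 and 54.4% on day 14 differed at 1 of 12 bases from another, which joins them into 2010, 1409 and 581 families. Of the 766 families with several barcodes, 64.9% lay in 1 cluster, so barcodes may not be separate cells, and day shares of Dcn, Bgn, Aspn and Ogn are also given per family. The labelled Leydig fate was read from 14 Leydig marker genes, whose summed level was 507 counts per 1000000 UMIs (CPM) on day 4, 706 on day 7 and 12627 on day 14. The list was partly drawn from the study's own markers of these libraries, so it is no independent check of the label. Lists of the other named states of the culture were above the Leydig list on days 4 and 7, the interstitial progenitor list for example at 2028 and 950 CPM. The lists of further cell types that follow summed to less than the Leydig list on each day. On days 4, 7 and 14 the macrophage list of 10 genes summed to 12.9, 29.8 and 241 CPM (of which Lyz2 gave 199.6 on day 14, with C1qa at 0, 0 and 1 UMI). The 9 endothelial genes summed to 91.9, 122 and 36.6 CPM, of which Cdh5 gave 77.7, 111 and 22.3. The peritubular or pericyte list summed to 141, 109 and 7.70 CPM, the germ cell list to 137, 24.3 and 49.2 CPM, and the Sertoli list to 56.2, 52.0 and 51.5 CPM. Lymphoid genes summed to under 3 CPM and genes of tendon, cartilage and bone to 15.6–24.2 CPM. The part of such cells in the values of the family was not tested.

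Most of the genes lie near another member in the mouse genome. On GRCm38, Aspn (chromosome 13 from 49544443 to 49567565), Omd (49582462 to 49592822) and Ogn (49608046 to 49624501) follow each other on the plus strand, 14.9 kb and 15.2 kb apart. Dcn (chromosome 10 from 97479609 to 97518143) and Lum (97565128 to 97572703) are 47.0 kb apart on the plus strand. Fmod (chromosome 1 from 134037254 to 134048277, plus strand) and Prelp (133910304 to 133921414, minus strand) are 116 kb apart. Bgn lies on chromosome X (73483602 to 73495933, plus strand) and Podn on chromosome 4 (108014791 to 108096445, minus strand). Aspn, Omd and Ogn lie wholly within Cenpp on the opposite strand (8.05, 7.74 and 4.51 CPM on days 4, 7 and 14), and Prelp overlaps the antisense gene Gm15851 (2.21, 1.46 and 1.5 CPM). Since the use of strand in counting is not given in the sources used here, reads of these partners cannot be told apart. Podn overlaps Scp2 on the same strand (75.0, 82.2 and 116 CPM), and its counts are uncertain for that reason.

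The promoters of Aspn, Omd and Ogn are shown because these neighbours did not share 1 pattern over the days, and that of Bgn because its level varied least between cell groups. The RefSeq table (GRCm38.p6) gave windows for 7 of the 9 genes. Capitals mark the motif TATAAA (read by the general factor TBP), GGAATG (the motif of TEAD factors) and CCCGCC (the motif of Sp factors), on either strand. The search also took in AAGGTCA (bound by NR5A1, the Leydig regulator SF1) and TGANTCA (bound by AP-1). Each window holds the 250 bases before the annotated start, on the plus strand, in the positions that follow: Aspn chr13:49544193-49544442, Omd chr13:49582212-49582461, Ogn chr13:49607765-49608014 and Bgn chrX:73483351-73483600.
Aspn: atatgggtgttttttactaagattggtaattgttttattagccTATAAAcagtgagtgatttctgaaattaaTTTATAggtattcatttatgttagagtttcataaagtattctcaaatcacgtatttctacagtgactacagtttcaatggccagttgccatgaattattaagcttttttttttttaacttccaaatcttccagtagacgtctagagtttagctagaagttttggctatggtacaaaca
Omd: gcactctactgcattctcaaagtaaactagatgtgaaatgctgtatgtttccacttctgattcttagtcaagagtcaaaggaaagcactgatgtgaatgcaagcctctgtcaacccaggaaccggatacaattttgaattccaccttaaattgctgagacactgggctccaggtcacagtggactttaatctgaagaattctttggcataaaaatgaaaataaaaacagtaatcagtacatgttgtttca
Ogn: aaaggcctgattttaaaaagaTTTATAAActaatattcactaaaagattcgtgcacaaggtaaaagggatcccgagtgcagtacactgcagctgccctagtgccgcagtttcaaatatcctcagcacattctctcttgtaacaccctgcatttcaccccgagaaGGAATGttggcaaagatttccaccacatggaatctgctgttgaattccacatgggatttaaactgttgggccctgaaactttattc
Bgn: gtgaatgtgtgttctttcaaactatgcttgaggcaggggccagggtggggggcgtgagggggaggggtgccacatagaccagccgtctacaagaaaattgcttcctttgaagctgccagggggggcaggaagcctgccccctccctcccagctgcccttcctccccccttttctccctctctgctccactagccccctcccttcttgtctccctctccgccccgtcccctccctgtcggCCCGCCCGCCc
The Aspn window held TATAAA 207 bases before the start and its reverse complement 178 bases before it. In the Ogn window these letters stood 229 and 227 bases before the start, on both strands and overlapping each other, with GGAATG 86 bases before it. The Omd window held none of the 5 motifs, and the Bgn window held CCCGCC 11 and 7 bases before the start, overlapping. None of the 8 windows found for the family held AAGGTCA or TGANTCA. Among 32851 promoters of the same length, TATAAA was found in 12.4%, GGAATG in 12.6%, CCCGCC in 32.5%, AAGGTCA in 4.08% and TGANTCA in 6.75%. The GC content was 30% for Aspn, 38.4% for Omd, 42.0% for Ogn and 64.4% for Bgn, beside a median of 52.4% over all promoters.

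The members were read first as summed CPM of each library, with exact Poisson 95% intervals in brackets that cover counting error only. These sums cannot tell fewer cells of a type from less RNA per cell, and UMIs tag transcript ends, so a level is not per length. The 9 genes together gave 2390 CPM on day 4, 2863 on day 7 and 2768 on day 14. The composition moved more than the sum: Bgn gave 64.3%, 82.8% and 56.3% of the family's UMIs and Dcn 26.0%, 12.8% and 34.8%.

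Among class I members, which bear chondroitin or dermatan sulphate or, for asporin, no such chain, Dcn and Bgn moved in opposite directions. Dcn, which encodes decorin, a regulator of collagen fibril diameter that binds TGF-beta, was at 621 CPM on day 4 (607–635, 7873 UMIs), 368 on day 7 (357–379, 4275 UMIs) and 964 on day 14 (938–991, 5132 UMIs). Day 14 was the highest and day 7 the lowest, and no intervals overlapped. Bgn, which encodes biglycan, a close relative that binds collagen and BMPs, was at 1536 CPM (1515–1558, 19477 UMIs), 2370 CPM (2342–2398, 27554 UMIs) and 1557 CPM (1524–1591, 8291 UMIs) on days 4, 7 and 14. Its highest level fell on day 7, and the intervals of days 4 and 14 overlapped. Aspn, which encodes asporin, a collagen-binding protein that can hold TGF-beta, was at 23.0 CPM on day 4 (20.4–25.7, 291 UMIs), 6.88 on day 7 (5.46–8.56, 80 UMIs) and 98.6 on day 14 (90.3–107, 525 UMIs). Day 14 stood far above the other days.

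Class II members, which can bear keratan sulphate, had no common order of days. Lum, which encodes lumican, was at 18.8 CPM (16.5–21.3, 238 UMIs), 14.6 CPM (12.5–17.0, 170 UMIs) and 29.3 CPM (24.9–34.3, 156 UMIs) on days 4, 7 and 14. Day 14 was the highest, and the intervals of days 4 and 7 overlapped. Fmod, which encodes fibromodulin, a binder of type I collagen, was at 17.1 CPM (14.9–19.5, 217 UMIs), 35.3 CPM (31.9–38.9, 410 UMIs) and 19.0 CPM (15.5–23.1, 101 UMIs). It shared with Bgn the highest level on day 7 and overlapping intervals on days 4 and 14. Prelp, whose protein anchors basement membranes to connective tissue through heparan sulphate and collagen, was at 98.4 CPM (93.1–104, 1248 UMIs), 55.1 CPM (50.9–59.6, 641 UMIs) and 37.8 CPM (32.7–43.4, 201 UMIs). It was the 1 member lower at each later day with no overlap of intervals. Omd, which encodes osteomodulin, known from mineralised matrix, was at 2.68 CPM (1.86–3.75, 34 UMIs), 1.2 CPM (0.658–2.02, 14 UMIs) and 13.9 CPM (10.9–17.5, 74 UMIs). As with its neighbour Aspn, day 14 was the highest.

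The class III member Ogn, which encodes osteoglycin (mimecan), a keratan sulphate proteoglycan of collagenous tissue, was at 70.9 CPM on day 4 (66.4–75.7, 899 UMIs), 10.9 on day 7 (9.11–13.0, 127 UMIs) and 47.3 on day 14 (41.7–53.5, 252 UMIs). It was highest on day 4, unlike its chromosomal neighbours Aspn and Omd. Podn, which encodes podocan, had 20, 16 and 6 UMIs (1.58, 1.38 and 1.1 CPM), too few to order the days.

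**Figure D1:**
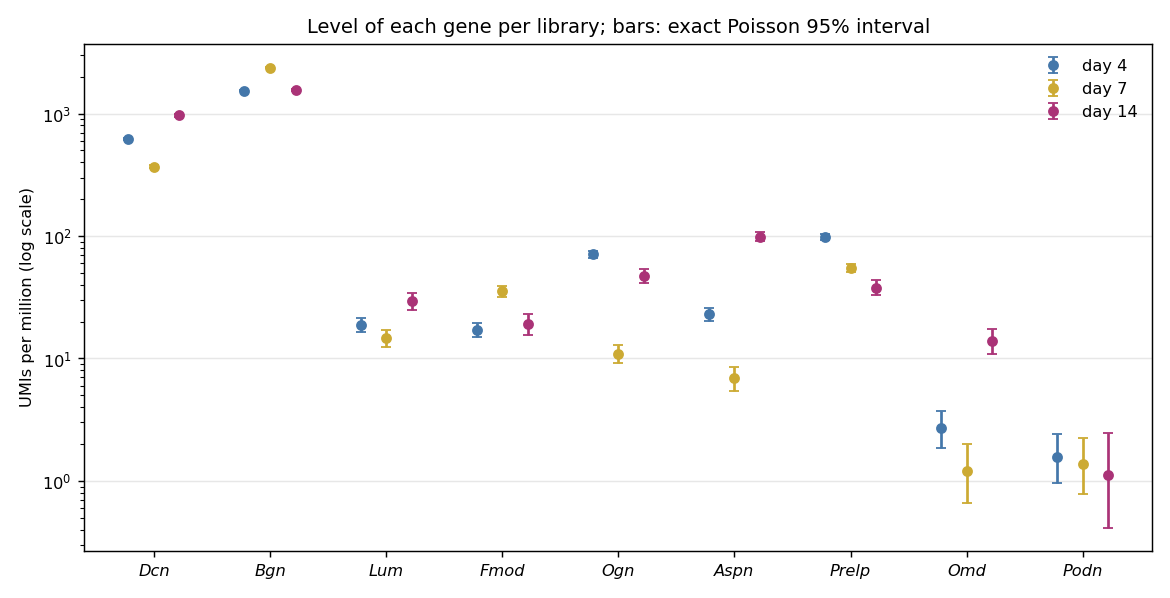
Level of each of the 9 genes in CPM (vertical axis, log scale) in the libraries of day 4, day 7 and day 14; points are single libraries and bars exact Poisson 95% intervals. Dcn, Lum, Aspn and Omd sat highest on day 14, Bgn and Fmod on day 7 and Ogn and Prelp on day 4.

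The comparisons of days ask when in the culture each gene changes, and they share libraries, so they are not independent of each other. A gene was compared when it had at least 20 UMIs over both groups, and was counted as higher or lower when log2(CPM + 1) differed by 1 or more (2-fold). From day 4 to day 7, 1 member was higher and 2 were lower, beside 2.25% of 12954 genes higher and 2.76% lower. Fmod was 2.06-fold higher (1.74–2.44), Ogn 6.49-fold lower (5.39–7.88) and Aspn 3.34-fold lower (2.60–4.33). The median log2 difference of the 9 genes was -0.74, against 0.09 over all genes. The Fmod value stood just at the limit (log2 difference 1.00) and came to 0.91 with TMM scaling and 0.90 with DESeq2 size factors, so under both the family had 0 genes higher and 2 lower.

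From day 7 to day 14, 4 members were higher and 0 lower, beside 10.1% of 12656 genes higher and 14.0% lower. Aspn was 14.3-fold higher (11.3–18.4), Omd 11.5-fold (6.46–22.1), Ogn 4.33-fold (3.49–5.41) and Dcn 2.62-fold (2.52–2.73). Lum was just short of the limit, at a ratio of 2.0 (1.60–2.51) and a log2 difference of 0.96, which became 1.08 with TMM scaling or DESeq2 size factors. The members' median was 0.96 and that of all genes -0.13. TMM scaling moved the median of all genes by 0.12 in this comparison, to -0.01, and the share of higher genes among all genes past the limit was then 49.8% in place of 41.9%.

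From day 4 to day 14, 2 members were higher and 1 lower, beside 13.5% of 12712 genes higher and 15.3% lower. Omd was 5.18-fold higher (3.41–8.02) and Aspn 4.30-fold higher (3.72–4.97), while Prelp was 2.61-fold lower (2.25–3.04). The other 6 members lay within 2-fold, with Bgn at a ratio of 1.01 (0.988–1.04) and Fmod at 1.11 (0.866–1.41). The share of members past the limit was thus close to the background here, and the median of 0.14 lay near the -0.05 of all genes.

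Cell states were next set apart by clustering all barcodes without the members and their pathway genes, 117 genes in all. Of the 12 clusters, 11 took names from marker lists, partly drawn from the study's own markers of these libraries, and cluster 11 took none. A named class is written with "-like". The 13 groups of 1 cluster on 1 day with at least 50 barcodes spanned very different ranges for each gene. Among the 7 genes with a UMI in every group, Ogn varied most, from 4.84 CPM in cluster 2 on day 7 (7 UMIs) to 554 CPM in cluster 9 on day 4 (135 UMIs), a ratio of 114. Aspn ran from 2.75 CPM in cluster 9 on day 7 (3 UMIs) to 109 CPM in cluster 7 on day 14 (352 UMIs). Bgn varied least, from 1101 CPM in cluster 7 on day 14 to 2797 CPM in cluster 9 on day 7, a ratio of 2.54.

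Cluster 9 was led by the elastic fibre genes Eln, Mfap2 and Mfap4, by Entpd2 and Cilp, and by the member Fmod. How many of all genes had their highest level in it was not counted, so no share stands beside the members named here. On day 7 it had the highest Fmod (127 CPM), Bgn (2797 CPM) and Podn (3.66 CPM, 4 UMIs), and on day 4 the highest Ogn (554 CPM) and also the highest Omd (16.4 CPM, 4 UMIs, close to the 16.3 CPM of cluster 6 on day 14). Cluster 6, the differentiating Leydig-like barcodes of day 14, had the highest Dcn (1703 CPM) and Lum (70.3 CPM). The highest Prelp (153 CPM) was in cluster 4 of day 4, which was led by Ifitm1, Igfbp3, Lrrc17 and Penk. Both clusters 4 and 9 carried the interstitial progenitor-like name, cluster 4 holding most of that class on day 4 and cluster 9 on day 7. The name rests on markers only, of which 6 of 10 passed in cluster 4 and 5 of 10 in cluster 9. The study described its own interstitial progenitor cluster among freshly sorted cells of day 0, before culture.

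**Figure D2:**
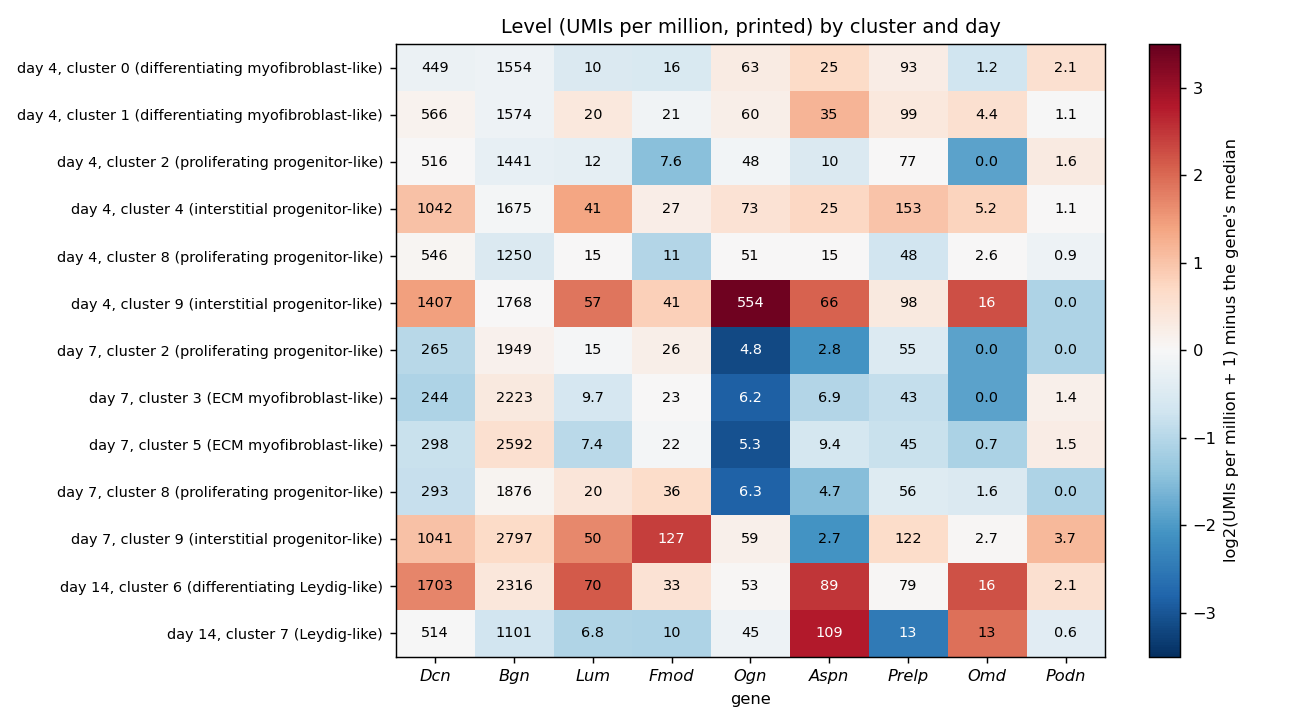
Level of each gene (columns) in the 13 groups of 1 cluster on 1 day (listed by day); the printed value is CPM and the colour is log2(CPM + 1) minus the median of that gene over the 13 groups. Ogn and Aspn were low in all 5 groups of day 7 apart from Ogn in cluster 9, and Aspn and Omd were high in both groups of day 14.

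Because the make-up of the libraries differed between days, day 7 was also compared with day 4 inside the 3 clusters with at least 50 barcodes on both days. Ogn was lower on day 7 in each, 9.85-fold in the mitotic cluster 2 (4.58–25.2), 8.14-fold in the S-phase cluster 8 (3.87–19.7) and 9.45-fold in cluster 9 (6.97–12.9). Aspn was lower as well, 3.72-fold (1.24–15.0), 3.18-fold (1.2–9.85) and 23.9-fold (6.84–128), the last from 3 UMIs on day 7 and 16 on day 4. Fmod was higher in each, with ratios of 3.46 (1.83–6.92), 3.41 (1.78–7.08) and 3.10 (1.64–6.61). These 3 directions were thus those of the whole libraries. Cluster 9 may not be 1 state on both days, however. At resolution 1.2, a cluster led by Eln and Mfap4 held 2 barcodes of day 4 and 237 of day 7. Another, led by Hpgd, Chrdl1 and Ogn, held 80 and 36. The ratios within cluster 9 can therefore hold a difference in cell make-up, and its part was not tested. In the interstitial progenitor-like class, held mostly by cluster 4 on day 4 and by cluster 9 on day 7, Ogn was 2.07-fold lower on day 7 (1.58–2.75). Dcn was lower in each cluster (ratios of 0.514, 0.538 and 0.740) and Bgn higher (1.35, 1.5 and 1.58). Prelp did not share 1 direction: its ratio was 0.710 (0.532–0.941) in cluster 2, 1.17 (0.811–1.70) in cluster 8 and 1.24 (0.797–2.0) in cluster 9, against 0.560 between the whole libraries.

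**Figure D3:**
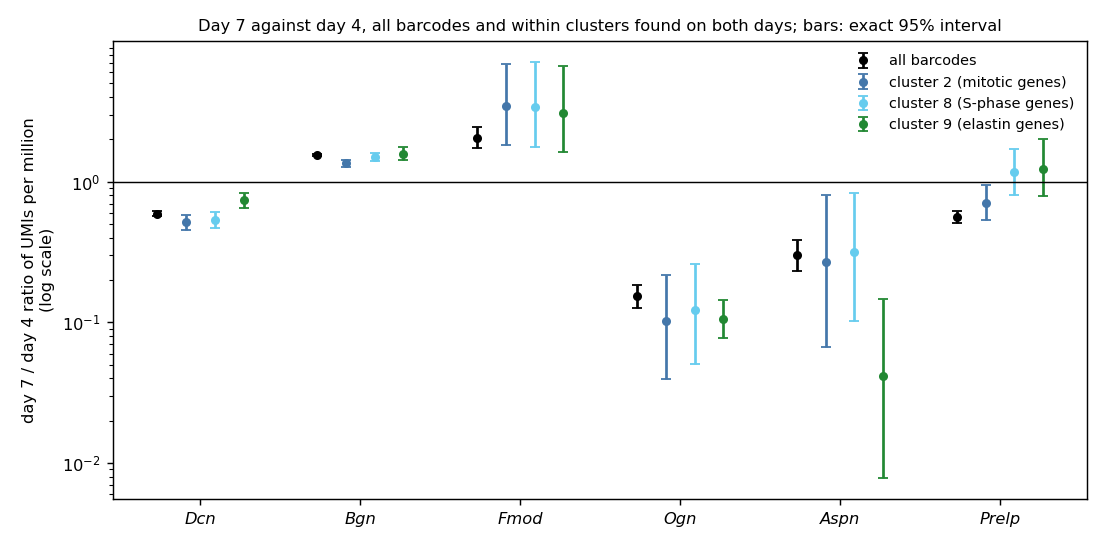
Ratio of the day 7 level to the day 4 level (vertical axis, log scale) for 6 genes, over all barcodes (black) and within clusters 2, 8 and 9; bars are exact 95% intervals of the ratio. Ogn and Aspn lay below 1 and Fmod and Bgn above 1 in every one, whereas Prelp lay on both sides of 1.

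Within the day 14 library, 419 Leydig-like barcodes (cluster 7, led by Hsd3b1, Cyp17a1 and Cyp11a1) were compared with 525 differentiating Leydig-like barcodes (cluster 6, led by Slc38a5, Gpx3, Mmp2 and Apoe). Of 8 members with enough UMIs, 5 were lower in the Leydig-like barcodes and 0 higher, beside 5.75% of 10228 genes lower and 4.07% higher. Dcn was at 514 against 1703 CPM (3.31-fold lower, 3.12–3.51) and Bgn at 1101 against 2316 CPM (2.10-fold lower, 2.01–2.2). Lum, with 22 against 134 UMIs, was at 6.79 against 70.3 CPM (10.4-fold lower, 6.57–17.1). Prelp was at 13.0 against 79.2 CPM (6.11-fold lower, 4.32–8.82) and Fmod at 10.2 against 32.5 CPM (3.20-fold lower, 2.06–5.03). Lum thus had the largest ratio of the 5. The neighbours on chromosome 13 did not pass the limit: Ogn was at 45.3 against 53.0 CPM, Omd at 13.0 against 16.3 CPM, and Aspn at 109 against 89.2 CPM (ratio 1.22, 1.01–1.47). The median log2 difference of the 8 genes was -1.33, against -0.05 over all genes. The fibrillar collagens lay similarly in this comparison, with 4 of 7 lower, 0 higher and a median of -1.30. The Leydig-like barcodes were deeper, with a median of 5518 UMIs against 2230, and the same 5 members passed when each barcode was thinned to 1500 UMIs or families were merged, while Fmod fell short (-0.94) with equal weight per barcode.

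A division that does not use clusters gave a graded picture. The 543 day 14 families of at least 1500 UMIs were thinned to 1500 and ranked by the UMIs of the 14 Leydig marker genes into 4 groups of 138, 135, 135 and 135 families. From the lowest group (0 to 2 marker UMIs) to the highest (27 to 90), Dcn stood at 1739, 1723, 681 and 306 CPM. Bgn stood at 2527, 2094, 1294 and 815 CPM, and so was lower at every step, whereas Dcn was alike in the lowest 2 groups. Lum stood at 106, 79.0, 14.8 and 9.88 CPM, from 22, 16, 3 and 2 UMIs. Prelp stood at 135, 39.5, 4.94 and 14.8 CPM, from 28, 8, 1 and 3 UMIs. Fmod stood at 29.0, 14.8, 9.88 and 14.8 CPM, from 6, 3, 2 and 3 UMIs, with overlapping intervals in all 4 groups. Aspn, at 87.0, 114, 128 and 64.2 CPM, had overlapping intervals in all 4 groups. Ogn (53.1, 19.8, 98.8 and 39.5 CPM) and Omd (14.5, 4.94, 39.5 and 9.88 CPM) were highest in the same group, that of 10 to 26 marker UMIs, from 20 and 8 UMIs.

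**Figure D4:**
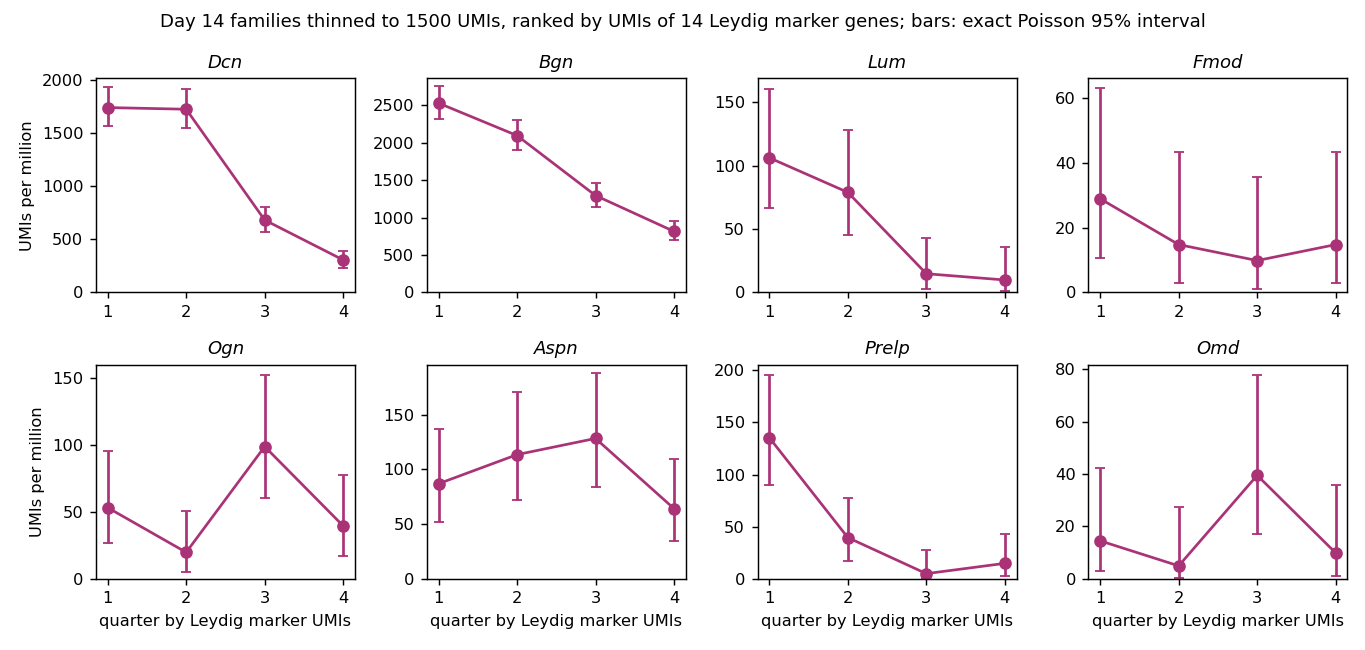
Level in CPM (vertical axes, from 0) of 8 genes in day 14 barcode families thinned to 1500 UMIs and ranked into 4 groups by UMIs of 14 Leydig marker genes (horizontal axes, 1 lowest to 4 highest); bars are exact Poisson 95% intervals. Dcn went from 1739 to 306 and Bgn from 2527 to 815, while Aspn stayed between 64.2 and 128.

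On day 4, 612 proliferating progenitor-like barcodes were compared with 1636 differentiating myofibroblast-like barcodes. None of 7 members was higher and 1 was lower, beside 6.23% of 11141 genes higher and 1.67% lower. This was Aspn, at 12.1 against 26.0 CPM (2.15-fold lower, 1.5–3.18), a difference that fell under the limit in 7 of the alternatives tried. Dcn (527 against 465 CPM) and Bgn (1368 against 1557 CPM) differed little. On day 7, 1270 ECM myofibroblast-like barcodes were compared with 485 proliferating progenitor-like barcodes, and 1 of 7 members was higher and 1 lower, beside 2.45% of 11424 genes higher and 5.72% lower. Aspn was at 8.86 against 3.68 CPM (2.41-fold higher, 1.23–5.26, from 65 and 10 UMIs) and Lum at 7.91 against 17.3 CPM (2.19-fold lower, 1.46–3.27). Both fell under the limit with families merged. Dcn was at 286 against 278 CPM and Bgn at 2519 against 1915 CPM. Both lay within 2-fold between the classes of each pair.

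The interstitial progenitor-like class was set beside the main class of its day after the clusters had been seen. On day 4, its 674 barcodes had 3 of 8 members higher and 0 lower than the differentiating myofibroblast-like barcodes, beside 3.61% of 11040 genes higher and 2.34% lower. Dcn was at 1073 against 465 CPM (2.31-fold, 2.19–2.42), Lum at 42.0 against 11.6 CPM (3.63-fold, 2.71–4.90) and Omd at 6.15 against 1.67 CPM (3.67-fold, 1.64–8.60, from 18 and 11 UMIs). Ogn (1.80-fold), Fmod (1.72-fold) and Prelp (1.59-fold) lay under the limit. On day 7, the ECM myofibroblast-like barcodes had 5 of 7 members lower and 1 higher than the 296 interstitial progenitor-like barcodes, beside 5.47% of 11083 genes lower and 6.23% higher. Ogn was at 5.45 against 54.4 CPM (9.99-fold lower, 6.62–15.2), Lum at 7.91 against 46.8 CPM (5.92-fold, 4.02–8.71) and Fmod at 21.9 against 122 CPM (5.58-fold, 4.43–7.03). These were joined by Dcn, at 286 against 985 CPM (3.44-fold lower, 3.20–3.70), and Prelp, at 44.4 against 119 CPM (2.68-fold lower, 2.18–3.28). Aspn was at 8.86 against 2.55 CPM, from 65 and 3 UMIs (ratio 3.47, 1.14–17.3), and its log2 difference turned to -0.19 when families were merged. Bgn differed by little on either day, at ratios of 1.08 and 0.932. With 30 components, the members kept in the clustering or the stricter filter, most of cluster 4 had no name and 79 to 94 barcodes of day 4 carried the interstitial progenitor-like name, with 5 members past the limit. The name was lost altogether at resolution 0.4, with 10 components or without the 6% of barcodes of highest doublet score. With only the 3 Scrublet calls removed, 17 barcodes of day 7 carried it, too few for the comparison of that day.

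**Figure D5:**
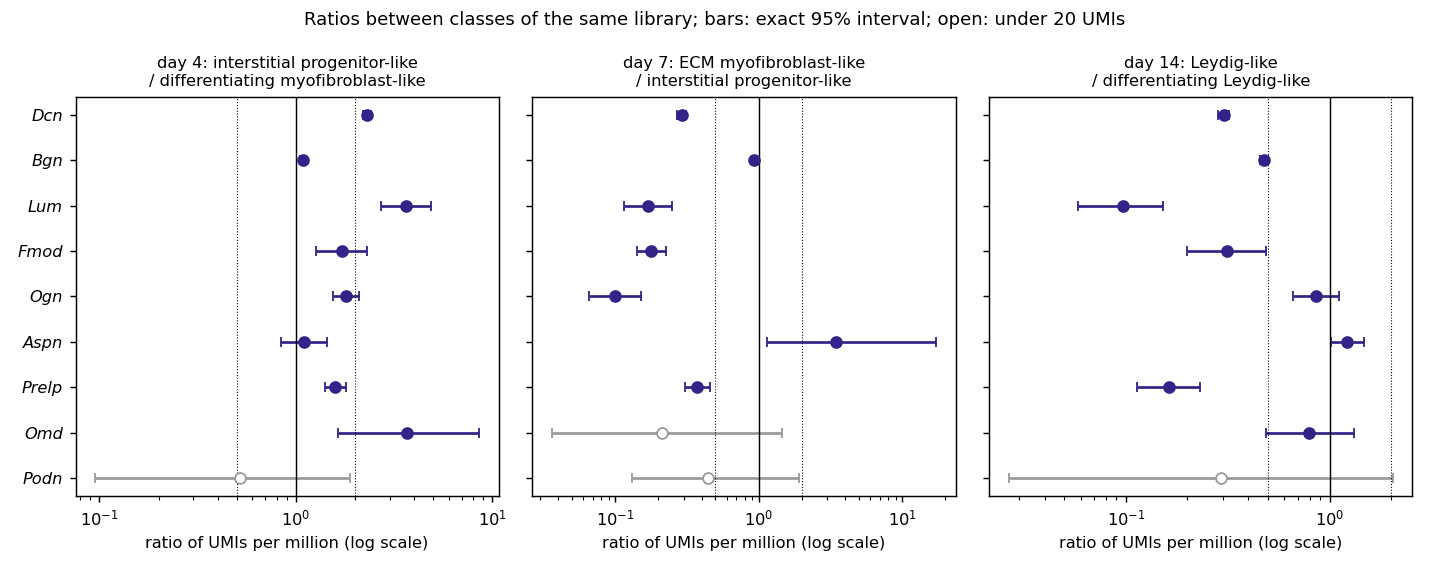
Ratio of levels in CPM (horizontal axes, log scale) between 2 classes of barcodes of the same library, for the 9 genes, on day 4 (left), day 7 (middle) and day 14 (right); bars are exact 95% intervals, dotted lines mark 2-fold and open grey points genes with under 20 UMIs. On day 14, Dcn, Bgn, Lum, Fmod and Prelp lay below the lower dotted line, and Ogn, Aspn and Omd near 1.

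The share of barcodes with a UMI was compared at 1 depth, by thinning each barcode to 1500 UMIs, which left out 753, 429 and 179 barcodes of days 4, 7 and 14. Dcn was then seen in 50.8% of barcodes on day 4, 34.3% on day 7 and 59.6% on day 14 (unthinned 64.7%, 55.2% and 76.4%). Bgn was seen in 85.9%, 93.2% and 80.9% (unthinned 91.8%, 95.8% and 92.5%). Thus most barcodes had Bgn on every day, and at the thinned depth Dcn reached a majority on days 4 and 14 only, although unthinned it was in a majority on every day. Aspn was seen in 3.41%, 0.746% and 11.5% (exact Clopper-Pearson 95% interval on day 14, 9.33–13.9%), and Ogn in 8.89%, 2.12% and 5.67%. Unthinned, these were 7.32%, 2.67% and 18.2% for Aspn and 19.5%, 4.24% and 11.1% for Ogn. Per family and thinned, Dcn was seen in 51.4%, 37.4% and 63.0%, Bgn in 87.7%, 94.9% and 83.6%, Aspn in 3.14%, 0.456% and 8.66% and Ogn in 9.37%, 2.13% and 5.34%. The order of days by share was the same as by level for Dcn, Aspn and Ogn. For Bgn, day 7 was highest by both, whereas day 4 was above day 14 by thinned share and their levels had overlapping intervals. On day 14, Dcn was seen in 75.9% of 374 thinned differentiating Leydig-like barcodes (71.3–80.2%) and in 43.7% of 398 Leydig-like barcodes (38.8–48.7%). Per family these shares were 82.7% of 254 (77.5–87.1%) and 44.1% of 272 (38.1–50.2%). No barcode group large enough to serve as a type that lacks the family was found. Only 7 barcodes held 3 or more macrophage markers, with Dcn at 47.9 CPM (2 UMIs) and Bgn at 263 CPM (11 UMIs). Those with 3 or more germ cell markers numbered 8, with Dcn at 437 CPM (25 UMIs) and Bgn at 1382 CPM (79 UMIs). Barcodes outside these groups and cluster 11 had Dcn at 582 CPM and Bgn at 1871 CPM. How much free RNA adds to the shares was not tested.

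UMIs of the rarer members were held by few families on days 7 and 14. On day 7 the 10 leading of 1409 families held 41.25% of Aspn, 37.1% of Lum and 32.3% of Ogn UMIs. On day 4 the 10 leading of 2010 families held 12.0%, 24.8% and 7.34%. On day 14, with 581 families, the 10 with most Aspn UMIs held 39.4% of the 525 Aspn UMIs but 3.05% of all UMIs, and 1 family held 37. Without the 10 leading families of each day, Aspn was at 20.5, 4.12 and 61.6 CPM on days 4, 7 and 14. The 10 leading families held 41.7% of Ogn UMIs on day 14, and without those of each day Ogn was at 66.4, 7.48 and 28.6 CPM. They held 44.9% of Lum UMIs on day 14, and without them Lum was at 14.2, 9.27 and 16.4 CPM. The order of the days was thus kept for all 3 genes, with Lum on days 4 and 14 close together. By contrast, the 10 leading families of day 14 held 13.6% of Dcn and 10.1% of Bgn UMIs, and an Aspn UMI was seen in 146 of the 581 families.

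Seen together within families, Lum went with Dcn on day 14. Lum was found in 59 of 498 families with a Dcn UMI and in 0 of 83 families without, for which a limit of 3 counts allows 3.61% and the exact interval reaches 4.35%, and the families with Dcn were deeper (a median of 8384 against 4937 UMIs). After thinning to 1500 UMIs, Lum was found in 28 of 342 families with Dcn (8.19%, 5.51–11.6%) and in 1 of 201 without (0.498%, 0.0126–2.74%). For the neighbours Aspn and Ogn, families with and without Aspn had overlapping intervals after thinning, on day 14 and on day 4. On day 14, Ogn was found in 28 of 146 families with Aspn (19.2%) and in 70 of 435 without (16.1%). After thinning it was found in 0 of 47 with Aspn, for which a limit of 3 counts allows 6.38% and the exact interval reaches 7.55%, and in 29 of 496 without (5.85%). On day 4, Ogn was found in 89 of 209 families with Aspn (42.6%, 35.8–49.6%) and in 450 of 1801 without (25.0%, 23.0–27.1%), and the families with Aspn were deeper (a median of 6580 against 5199 UMIs). After thinning these shares were 7 of 58 (12.1%, 4.99–23.3%) and 166 of 1789 (9.28%, 7.97–10.7%), with overlapping intervals. Omd was found in 21 of 98 day 14 families with Ogn (21.4%, 13.8–30.9%) and in 36 of 483 without (7.45%, 5.27–10.2%). Thinned, it was in 2 of 29 (6.90%) and 12 of 514 (2.33%), counts too low to set apart. Lum was found in 8 of 47 thinned day 14 families with Aspn (17.0%, 7.65–30.8%) and in 21 of 496 without (4.23%, 2.64–6.40%). Whether a Dcn UMI itself comes from the same cell as a Lum UMI depends on how many cells a family holds, which was not tested.

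Across the 13 groups of 1 cluster on 1 day, members were compared by Pearson's r of log2(CPM + 10), given as a description over points that share libraries and clusters. Dcn ran most closely with Lum (r = 0.86) and Ogn (r = 0.80), and Bgn with Fmod (r = 0.74). For Dcn and Bgn, which encode close relatives, r was 0.05, and for Bgn and Aspn it was -0.42. Among 6674 genes with at least 500 UMIs, those most like each member were Tshz2, Egflam and Nfia for Dcn (r = 0.96, 0.94 and 0.94), Col11a1, Xpr1 and Plxdc2 for Bgn (0.94, 0.91 and 0.90), and Fgl2, Ednra and Dkk3 for Lum (0.93, 0.92 and 0.92). Of these, Fgl2 is 1 of the markers that named the interstitial progenitor-like class. Casq2, Mfap4 and Ptgfrn were most like Fmod (0.92, 0.92 and 0.90), and Gm4149, BC028528 and Slit3 most like Ogn (0.95, 0.94 and 0.93). For Aspn these were Fam49a, Thoc2 and Cd55 (0.93, 0.91 and 0.91), and for Prelp Sox4, Tmem204 and Pmp22 (0.94, 0.94 and 0.92).

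The partners and modifiers of the family were read from day 4 to day 14 by lists of known function, with the background of that comparison given above (13.5% of genes higher, 15.3% lower). Of 11 fibrillar collagen genes, the fibre proteins that the family binds, 8 had enough UMIs, of which 0 were higher and 1 was lower. Col5a2, which encodes a chain of the type V collagen that starts fibrils, was at 255 against 707 CPM (2.77-fold lower, 2.62–2.94). Col3a1 was at 7202 against 4566 CPM, Col1a1 at 486 against 789 CPM and Col5a1 at 217 against 385 CPM, all within 2-fold. From day 7 to day 14, 5 of these 8 collagens were lower and 0 higher, beside 14.0% of 12656 genes lower and 10.1% higher. Their median log2 difference was -1.1, while the members' median was 0.96 and that of all genes -0.13.

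Of 23 genes that build chondroitin and dermatan sulphate chains, 19 had enough UMIs, and 2 were higher and 5 lower on day 14. The 4 that differed most were lower. Chst3, a chondroitin sulphotransferase, was at 1.1 against 6.31 CPM (5.6-fold, 2.46–15.7, from 6 and 80 UMIs) and Ugdh, which makes the UDP-glucuronate for all such chains, at 35.9 against 98.7 CPM (2.75-fold). Dse, an epimerase that turns chondroitin into dermatan sulphate, was at 18.6 against 45.2 CPM (2.43-fold) and Csgalnact1, which starts the chain's repeat, at 21.6 against 47.3 CPM (2.19-fold). The related gene Dsel went the other way, at 56.0 against 27.8 CPM. The median log2 difference of the 19 genes was 0.21, against -0.05 over all genes, so the list as a whole was not lower. Of 6 keratan sulphate genes, 4 had enough UMIs, with 1 higher and 1 lower. B4galt4 was at 34.7 against 7.81 CPM (4.45-fold, 3.47–5.74), and Chst1, a keratan sulphotransferase, had 0 UMIs on day 14 and 20 on day 4.

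Of 14 proteases that cleave the family or process its collagen partners, and their enhancers, 13 had enough UMIs, with 3 higher and 5 lower on day 14. Mmp2, gelatinase A, was at 584 against 51.6 CPM (11.3-fold higher, 10.4–12.3). Pcolce2, an enhancer of procollagen cleavage, was at 2.25 against 45.7 CPM (20.3-fold lower, 11.5–39.4), Adamts4 had 3 against 91 UMIs (ratio 0.0785, 0.0159–0.237), and Adamts9 was 3.12-fold lower (2.26–4.42). The related Pcolce, at a far higher level on both days, went the other way, at 1841 against 817 CPM. Mmp2 and Pcolce2 thus differed in opposite directions by more than any of the 9 members.

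Of 18 cell surface partners and bound growth factors, 16 had enough UMIs, with 2 higher and 8 lower on day 14. Bmp2 was at 6.76 against 0.710 CPM (ratio 9.52, 4.50–22.5, from 36 and 9 UMIs). Tgfb3 was at 7.89 against 67.4 CPM (8.55-fold lower, 6.27–12.0), Tgfb2 at 2.25 against 17.5 CPM (7.77-fold lower, 4.36–15.3), and the collagen receptor subunit Itga2 had 1 against 36 UMIs. The remaining TGF-beta ligand gene of the list, Tgfb1, was at 14.8 against 27.5 CPM. A link between the levels of these partners and those of the members was not tested.

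Of 22 other proteoglycan core proteins, 18 had enough UMIs, with 3 higher and 7 lower on day 14. Acan, the aggrecan of cartilage, had 124 UMIs on day 14 (23.3 CPM) and 2 on day 4 (ratio 148, 40.0–1232). Versican (Vcan) was at 28.5 against 194 CPM (6.79-fold lower, 5.77–8.06), Cspg4 (NG2) at 13.1 against 109 CPM (8.33-fold lower, 6.55–10.7) and the hyaluronan receptor Cd44 at 13.9 against 164 CPM (11.8-fold lower, 9.33–15.1). Of 8 relatives of the family, 4 had enough UMIs and 1 was higher: Chadl was at 2.44 against 0.631 CPM, from 13 and 8 UMIs (ratio 3.87, 1.49–10.8). The relatives Tsku (3.01 against 6.86 CPM), Ecm2, which lies beside Aspn on chromosome 13 (15.6 against 10.8 CPM), and Optc (4.32 against 2.92 CPM) did not pass the limit.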

How the data were processed

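Single-cell RNA sequencing was read from 3 Drop-seq libraries, 1 for each of days 4, 7 and 14. The authors aligned reads to GRCm38 with STAR (2.5.2a per the submitters' processing notes, which also name Picard 2.6.0 and SAMtools 1.2) and made raw UMI counts per gene and barcode with Drop-seq tools; the annotation release is not given in the sources used here. The deposited counts are not normalized. The merged table holds barcodes that passed the study's filter (at least 500 genes, at most 10% mitochondrial UMIs). Its 495 columns of freshly sorted cells belong to no sample used here. The separate counts of each day held the same value at every entry.

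Members and lists were chosen with earlier results of these data known. Counts were summed per day, cluster or class and given per 1000000 UMIs. Differences between 2 groups used log2(CPM + 1) for genes of at least 20 UMIs, and ratios carry exact 95% intervals. Clusters came from Seurat 5.3.0 in R 4.3.3 (2000 variable genes, 20 components, 20 neighbours, resolution 0.8). A cluster took the name of a list when at least 3 of its markers had 10 or more UMIs and 1.5 times the level elsewhere, limits set after clusters had been looked at. Scrublet (in scanpy 1.11.5, expected rate 6%) called 3 of 6124 barcodes and so did not work; the highest scores, 367 barcodes, were removed in an alternative. Other values came from Python 3.11.15, numpy 2.4.6, scipy 1.17.1 and pandas 2.3.3, with matplotlib 3.10.9 for figures, and the scripts were tested on simulated data. edgeR 4.0.16 (TMM) and DESeq2 1.42.0 (size factors) were used for scaling only. Positions are from GENCODE M21. The named genes are the 9 members, the 4 genes of each of 7 pathway lists that differed most from day 4 to day 14, and the 3 genes most like each member of at least 500 UMIs. Pcolce, Dsel and Tgfb1 are named in addition, next to related genes of their lists. Marker and leading genes are named as labels of clusters.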

Additional observations from a re-analysis of the deposited data

How the results depend on the processing

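No paired analysis was possible because each day has 1 library and the shared replicate number ties no samples together, and no replicate could be left out. What limits the values is the number of UMIs for Omd and Podn and the number of families on day 14. Podn had under 50 UMIs in all and changed direction in several settings, and Omd did so in the comparisons of classes. Names of classes depend on the clustering. The planned comparison of ECM myofibroblast-like with differentiating Leydig-like barcodes of day 7 is not given, because 28 barcodes had the latter name, and under the settings where the interstitial progenitor-like name was lost its comparisons could not be made.

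Of 115 recomputed counts, 92 stayed within 1.5 times the reported count. Most were counts of members past the limit, and the rest were counts of members whose share of barcodes was highest on day 14. Of recomputed values of single genes, 906 stayed within the interval of the reported value, 200 left it and 1, given below, reversed. A reversal was counted only for genes past the limit as reported. Genes short of it changed sign as well. Between ECM myofibroblast-like and proliferating progenitor-like barcodes of day 7, 11 of 153 log2 differences had the other sign, the most of any comparison. In each comparison of days, 1 or 2 of 99 did. From day 4 to day 7 the count of 3 became 1 with a pseudocount of 10 CPM and 7 at 1.5-fold. With the limit at 1.5-fold it became 7 in place of 4 from day 7 to day 14 and 5 in place of 3 from day 4 to day 14. Between proliferating progenitor-like and differentiating myofibroblast-like barcodes of day 4, the count of 1 became 0 with a pseudocount of 10 CPM, resolution 1.2, 10 components, a class given to each barcode by itself, Scrublet calls removed, the stricter filter (800 genes, 5% mitochondrial UMIs) or families merged. It became 2 at 1.5-fold, thinned to 1500 UMIs or at resolution 0.4. Between ECM myofibroblast-like and proliferating progenitor-like barcodes of day 7, the count of 2 became 0 with a pseudocount of 10 CPM or families merged, and 1 with equal weight per barcode, 10 components or a class given to each barcode by itself. Between interstitial progenitor-like and differentiating myofibroblast-like barcodes of day 4, the count of 3 became 6 at 1.5-fold, and 5 with 30 components, with the members kept in the clustering or with the stricter filter. The counts between Leydig-like and differentiating Leydig-like barcodes of day 14 and between ECM myofibroblast-like and interstitial progenitor-like barcodes of day 7 stayed within 1.5 times under every alternative that gave a value. The day 7 comparison gave none at resolution 0.4, with 10 components, with Scrublet calls removed or without the highest doublet scores. It thus depends on the clustering. Of single genes, Aspn turned to a log2 difference of -0.19 between ECM myofibroblast-like and interstitial progenitor-like barcodes with families merged, against 1.47 as reported. The causes were not tested. Merging of families and removal of the highest doublet scores were chosen after seeing the data.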

Other observations

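Barcodes that carried the differentiating Leydig-like name on day 7 were few in the reported clustering, and 5 other settings gave 65 to 302 of them. In these settings Dcn was at 821 to 2127 CPM in the barcodes so named, beside 270 to 290 CPM in the ECM myofibroblast-like barcodes, and Ogn at 27.5 to 236 CPM beside 5.42 to 5.84 CPM. Bgn was at 1967 to 2709 CPM beside 2508 to 2518 CPM. Of the 294 barcodes so named at resolution 0.4, 260 lay in cluster 9, as did 247 of the 302 with 10 components, and cluster 9 carries another name in the reported clustering. Aspn was at 0 to 3.44 CPM in them.

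Cluster 11 held 17 barcodes and carried no name. Slpi and the epithelial genes Krt18, Upk1b and Upk3b were among its leading genes. It had Dcn at 1699 CPM (1361–2095, 87 UMIs) and Bgn at 1484 CPM (1169–1857, 76 UMIs), while Lum, Aspn, Prelp, Omd and Podn had 0 UMIs, which with 3 counts as the limit allows up to 58.6 CPM each. With so few barcodes these values are given without a comparison.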
